A study of Mus musculus with 4 samples.

Results

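The open chromatin described here lies at 10 imprinted genes of the mouse and within 20 kb on either side of them: Kcnq1ot1, Peg3, Peg10, Mest, Snrpn, H19, Meg3, Cdkn1c, Igf2 and Dlk1. Of 75101 ATAC-seq peaks called in 4 libraries, 72 overlapped these windows, which cover 0.778 Mb. Peaks that overlapped between libraries were merged, which gave 49 regions of 44692 in the whole data set. The genes were chosen on these same peak calls, among them the Kcnq1ot1 promoter, called in the WT libraries only, so that calls, positions and ranks are given as a description and were not tested.

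In genomic imprinting, 1 parental copy of a gene is silenced and the other is expressed. The choice is set by control regions that carry DNA methylation from the egg or the sperm, and this methylation is kept on 1 chromosome in the cells of the embryo. The methylated copy is bound by the zinc finger protein ZFP57 and its partner TRIM28, while the unmethylated copy can be open and bound by other factors, such as CTCF at the H19 control region. Kcnq1ot1, Peg3, Peg10, Mest and Snrpn have a maternally methylated control region at their own promoter. H19 and Meg3 are maternally expressed noncoding RNAs whose paternally methylated control regions lie upstream of them. Cdkn1c, Igf2 and Dlk1 are controlled from a distance, Cdkn1c by the Kcnq1ot1 control region, Igf2 by that of H19 and Dlk1 by that of Meg3. The peak lists do not separate the parental chromosomes.

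ATAC-seq marks open chromatin by the insertion of sequencing adapters by the Tn5 transposase. The libraries were made from 5000 cells each, taken from the posterior forelimb buds of single Swiss Webster embryos at E10.5 with 35 somites. The groups are 2 WT embryos and 2 Shh-/- embryos, which carry the null allele Shh tm1amc in all cells and lack the Sonic hedgehog ligand. The Swiss Webster stock is outbred, and the sex of the embryos was not used here. Libraries are named by genotype and replicate number (rep1, rep2), and the lists held 39080 peaks in WT rep1, 11973 in WT rep2, 5589 in Shh-/- rep1 and 18459 in Shh-/- rep2. The lists hold no read counts. The study's methods name 1 target depth for the ATAC-seq libraries, but the reads behind each list are not given in the files, and a region without a peak is one where none was called, not one shown to be closed. WT rep2 had more peaks in its list than Shh-/- rep1 but fewer of the 10 genes with a peak, 3 against 5. Each of these lists held 5 peaks at the genes, and the part of list length in the counts was not tested. Counts with lists of equal size are given beside the promoter counts.

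The labelled tissue was set against the promoters of marker genes. Of 11 limb mesenchyme markers, 11, 4, 4 and 7 had a promoter peak in WT rep1, WT rep2, Shh-/- rep1 and Shh-/- rep2. Limb ectoderm markers had 2, 0, 0 and 2 of 8, endothelium markers 1, 0, 0 and 1 of 5, muscle progenitor markers 2, 1, 0 and 2 of 4, blood markers 1, 0, 0 and 0 of 5 and extraembryonic markers 0 of 4 in every library. Of all protein-coding genes, 60.4%, 39.2%, 17.3% and 51.3% had a promoter peak in the same order. The mesenchyme markers stood at 100%, 36.4%, 36.4% and 63.6%. They lay above that share in WT rep1 and Shh-/- rep1, below it in WT rep2 and not far from it in Shh-/- rep2. In WT rep2 and Shh-/- rep2 the promoter calls therefore do not by themselves show limb mesenchyme.

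Sequences from 6 of the regions are shown, each from mm10 and printed 5′ to 3′ on the strand of its gene. They come from the Kcnq1ot1 promoter (chr7:143296436-143296735, minus strand) and the open first intron of Peg3 (chr7:6728263-6728562, minus strand). Others are the intron of Peg10 that was called in every library (chr6:4749042-4749242, plus strand) and the peak in the first intron of Snrpn (chr7:60004026-60004226, minus strand). The rest are the peak upstream of H19 (chr7:142580256-142580456, minus strand) and the Meg3 promoter (chr12:109540877-109541077, plus strand). Capitals mark CCAAT boxes in Kcnq1ot1 and Meg3, the core of the YY1 motif, CCATNTT, in Peg3, the ZFP57 hexamer TGCCGC in Snrpn and the core of the CTCF motif, GGNGGCAG, in H19. The Peg10 sequence holds no match to any of these and is all in lower case.
Kcnq1ot1: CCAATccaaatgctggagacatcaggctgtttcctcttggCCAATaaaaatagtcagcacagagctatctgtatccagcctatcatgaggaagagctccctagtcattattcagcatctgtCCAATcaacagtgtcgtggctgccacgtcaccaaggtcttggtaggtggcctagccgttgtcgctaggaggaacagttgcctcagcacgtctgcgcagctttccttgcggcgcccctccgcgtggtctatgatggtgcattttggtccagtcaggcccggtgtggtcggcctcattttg
Peg3: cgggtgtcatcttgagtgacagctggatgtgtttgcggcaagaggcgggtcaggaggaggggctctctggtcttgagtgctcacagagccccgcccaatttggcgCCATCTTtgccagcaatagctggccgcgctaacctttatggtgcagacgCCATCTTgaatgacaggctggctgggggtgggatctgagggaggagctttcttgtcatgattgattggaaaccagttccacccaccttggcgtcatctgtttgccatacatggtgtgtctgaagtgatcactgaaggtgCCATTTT
Peg10: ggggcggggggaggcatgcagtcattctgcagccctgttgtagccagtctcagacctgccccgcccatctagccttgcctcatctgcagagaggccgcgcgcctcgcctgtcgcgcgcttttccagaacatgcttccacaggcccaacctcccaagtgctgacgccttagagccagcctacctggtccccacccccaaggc
Snrpn: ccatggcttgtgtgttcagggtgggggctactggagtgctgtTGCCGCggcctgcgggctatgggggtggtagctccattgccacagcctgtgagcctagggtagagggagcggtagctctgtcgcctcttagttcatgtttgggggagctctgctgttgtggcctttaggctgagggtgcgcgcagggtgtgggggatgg
H19: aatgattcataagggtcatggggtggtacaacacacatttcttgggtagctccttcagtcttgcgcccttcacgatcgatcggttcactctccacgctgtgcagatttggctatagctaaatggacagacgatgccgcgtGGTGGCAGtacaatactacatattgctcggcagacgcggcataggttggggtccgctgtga
Meg3: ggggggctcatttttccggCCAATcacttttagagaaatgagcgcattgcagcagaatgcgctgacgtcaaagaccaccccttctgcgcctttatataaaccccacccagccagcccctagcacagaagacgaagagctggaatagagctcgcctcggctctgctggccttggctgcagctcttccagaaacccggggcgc

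The 4 letter patterns were searched on both strands in the 201 bp around the best summit of every region. The ZFP57 hexamer was present in 9 of the 49 regions (18.4%) and in 8.84% of all regions, and in 8 of the 24 promoter regions among them (33.3%) against 15.4% of all promoter regions. The YY1 core was present in 8.16% of the 49 regions and 9.89% of all, the CTCF core in 14.3% and 10.8%, and CCAAT in 24.5% and 23.2%. The CCAAT box was added after the sequences had been seen. In the 201 bp upstream of H19 the CTCF core lies beside a ZFP57 hexamer on the same strand, and a further hexamer lies on the other strand. A match is a run of letters, not a bound site, and a window without a match says nothing about the factor.

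WT rep1 held 44 of the 72 peaks, with at least 1 peak at each of the 10 genes. Shh-/- rep2 held 18 peaks at 8 genes, WT rep2 held 5 peaks at 3 genes and Shh-/- rep1 held 5 peaks at 5 genes. As shares of the lists these were 0.113% (WT rep1), 0.0418% (WT rep2), 0.0895% (Shh-/- rep1) and 0.0975% (Shh-/- rep2). The share was lowest in a WT library and highest in the other one, so the genotypes overlapped.

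**Figure D1:**
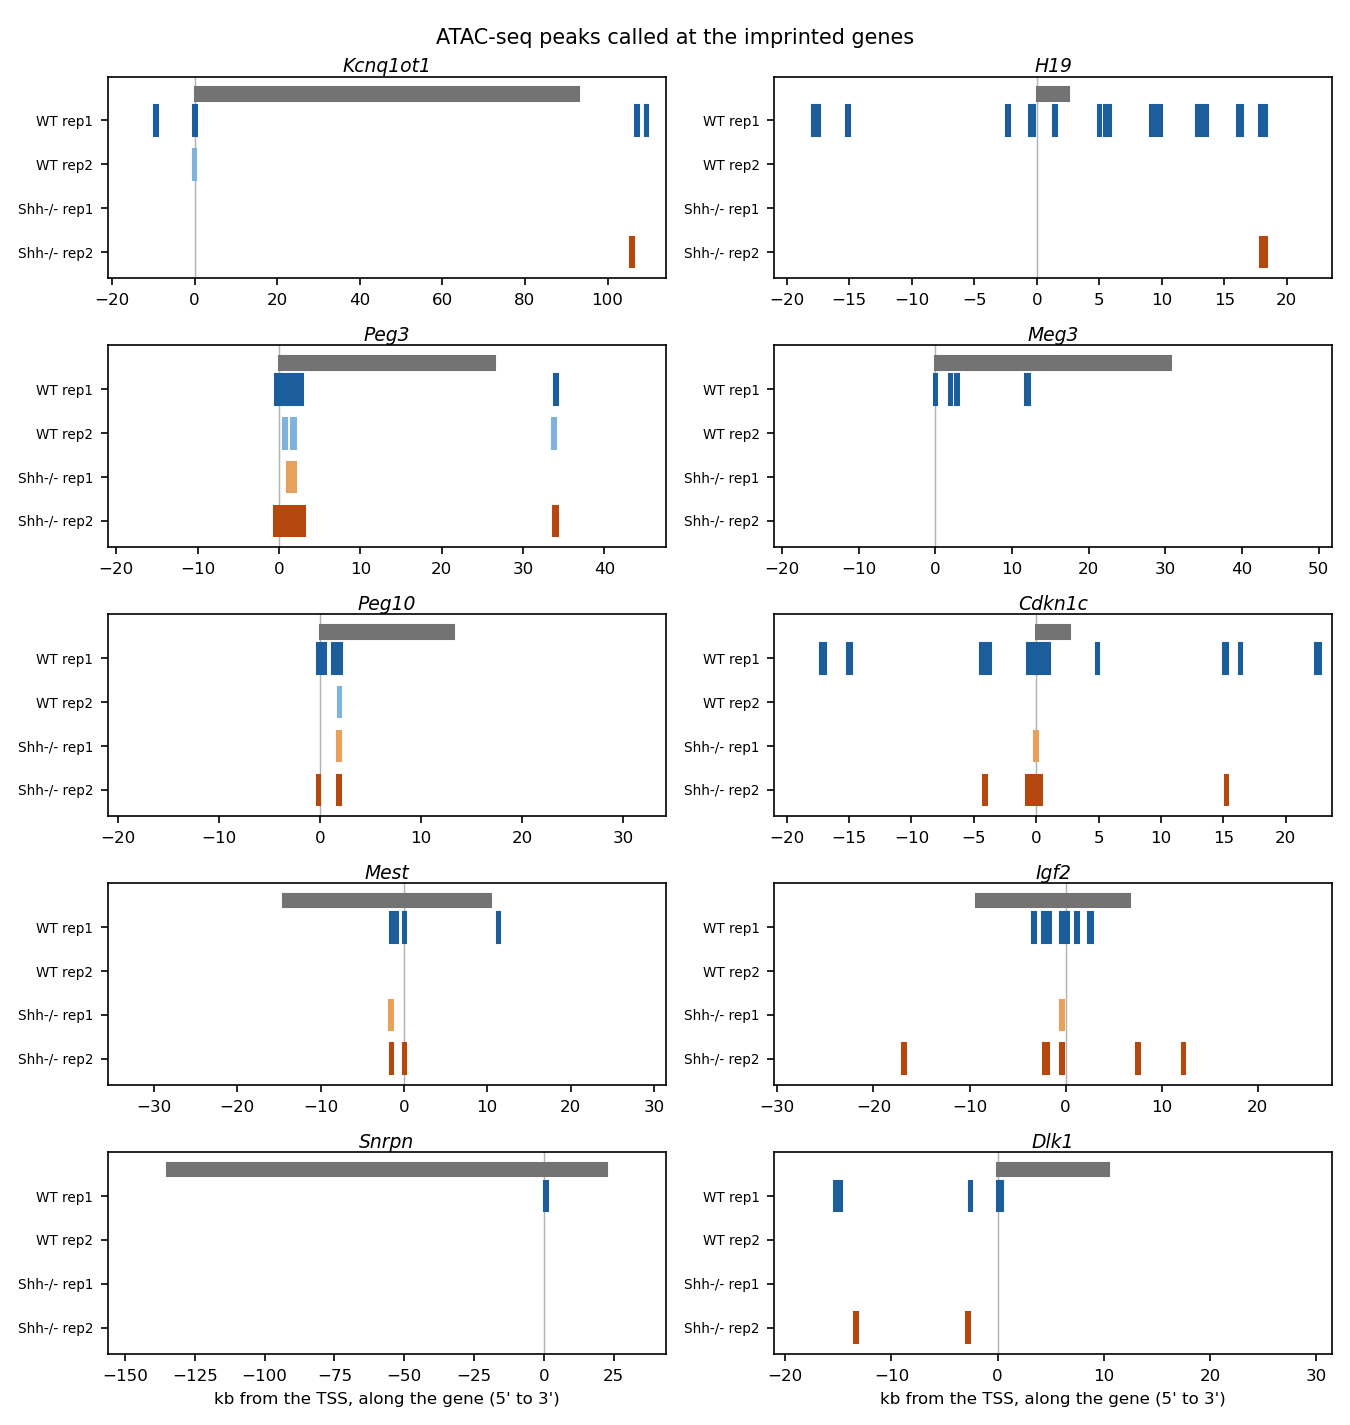
Peaks called at each of the 10 genes, with 1 row per library and the distance from the TSS in kb along the gene on the x axis. The grey bar is the gene body and the coloured blocks are peaks, drawn no narrower than a visible minimum. WT rep1 has the most blocks, 44 of 72, and at the Kcnq1ot1 TSS blocks stand only in the WT rows.

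Of the 49 regions, 30 were called in WT rep1 alone (61.2%), and 51.6% of all 44692 regions had this pattern. A further 7 (14.3%) were called in WT rep1 and Shh-/- rep2, against 11% of all regions. Another 5 (10.2%) were called in Shh-/- rep2 alone, against 7.33% of all regions. Called in every library were 2 regions (4.08%), against 7.97% of all regions. Called in both WT libraries and neither Shh-/- library was 1 region (2.04%), the Kcnq1ot1 promoter, against 2.09% of all regions. Called in both Shh-/- libraries and neither WT library were 0 regions, against 0.396% of all regions. The shares at the imprinted genes for the genotype-specific patterns were near those of the whole data set.

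By position, 24 of the 49 regions were promoter regions (49.0%, against 39.2% of all regions), 8 lay in introns, 1 in an exon and 16 between genes. A promoter region overlaps the stretch from 2 kb before to 1 kb after any annotated TSS. The 14 regions called in 2 or more libraries had a median GC content of 65.2%, and the 35 called in 1 library had 52.7%. Over all regions these medians were 62.7% and 53.7%. The 24 promoter regions held a median of 7 CpG sites in the 201 bp, and all promoter regions held 14. Some of the 24 lie at promoters of other genes only, such as Zim1, Nctc1 and Slc22a18.

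At least 1 promoter peak was called for 10 of the 10 genes in WT rep1, 2 in WT rep2, 4 in Shh-/- rep1 and 5 in Shh-/- rep2. The shares of all 55413 genes were 31.4%, 19.4%, 8.63% and 25.5% in the same order. Among protein-coding genes they were 60.4%, 39.2%, 17.3% and 51.3%, and among long noncoding RNA genes 22.0%, 11.6%, 5.20% and 16.0%. Against protein-coding genes, the listed genes stood above in WT rep1 and Shh-/- rep1, below in WT rep2 and close in Shh-/- rep2. Snrpn, H19, Meg3 and Dlk1 had a promoter peak in WT rep1 only, and without this library 6 of the 10 genes had one in any library. With each list limited to its 5589 highest scores, the size of the smallest list, the counts were 3, 2, 4 and 2.

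**Figure D2:**
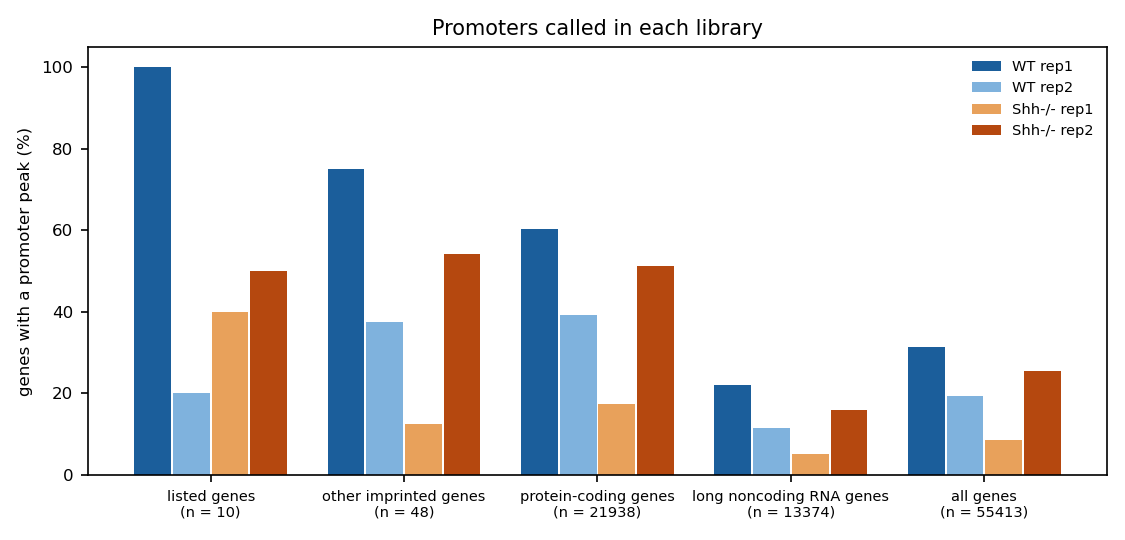
Share of genes with a promoter peak in each of the 4 libraries, in percent, for the 10 listed genes, 48 other imprinted genes and 3 wider sets. Each bar is 1 library, with no error bar since a library gives 1 value. The listed genes run from 2 of 10 in WT rep2 to 10 of 10 in WT rep1.

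Each promoter peak has a place in the list of its own library, ordered by the score deposited with it from the highest (rank 1) down. The rank is also given as a percent of the list, where a low value is a high place. Ranks are read within a list only, since a score in 1 library is not comparable with a score in another.

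**Figure D3:**
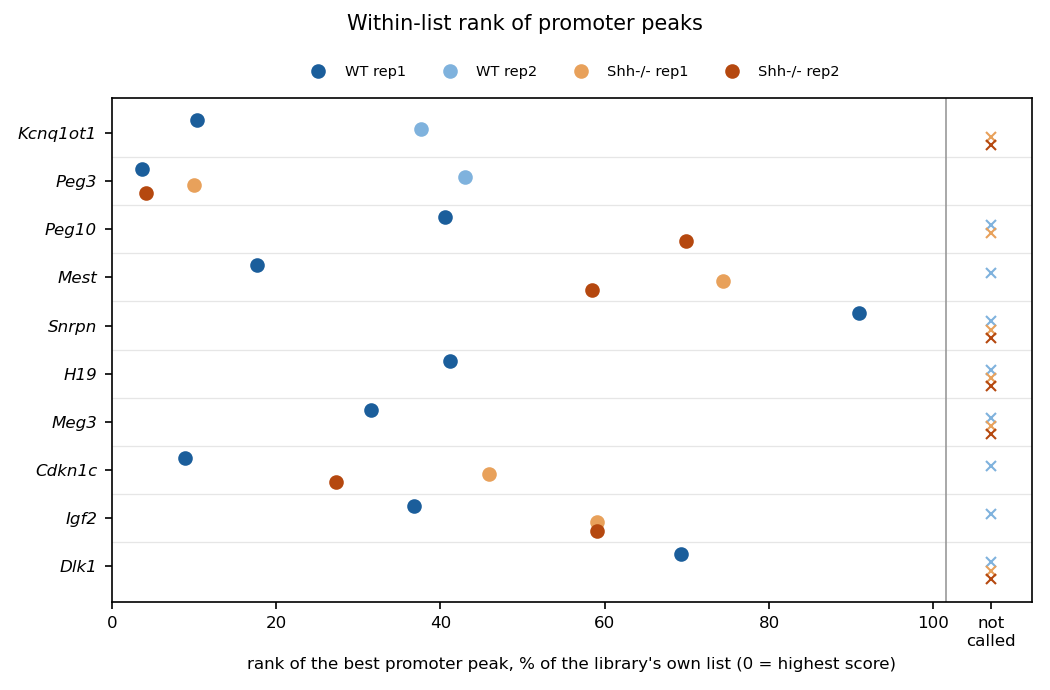
Rank of the best promoter peak of each gene as a percent of the list of its library, where 0 is the highest score. Circles are called peaks and crosses at the right are promoters that were not called. Peg3 is called in every library and lies between 3.71% and 43.0%, while Kcnq1ot1 has circles in the WT libraries only.

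Kcnq1ot1 is the long noncoding RNA made from the paternal chromosome within an intron of Kcnq1, and it silences Cdkn1c and neighbouring genes in cis. Its gene body (ENSMUSG00000101609.2) spans chr7:143203458-143296549 on the minus strand, and the region at its promoter spans chr7:143296224-143296867, over the TSS. In WT rep1 the peak there was 644 bp wide, with a score of 286 and rank 4077 (10.4% of the list). In WT rep2 it was 341 bp wide, with a score of 66 and rank 4510 (37.7%). No peak was called there in Shh-/- rep1, where the nearest peak was 164.3 kb away, at the Cdkn1c promoter, or in Shh-/- rep2, where the nearest was 84.1 kb away. Both WT libraries have the promoter in the upper part of their lists and both Shh-/- libraries lack it. ATAC-seq does not tell the strand, so the signal cannot be told apart from that of the Kcnq1 intron it lies in. The whole region holds 3 CCAAT boxes, or 4.66 per kb against 1.24 per kb over all regions, all of them in the sequence printed for Kcnq1ot1. The CCAAT box was added after the sequences had been seen, so nothing is read from this density. The region holds 0 matches to each of the ZFP57, YY1 and CTCF patterns.

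The Kcnq1ot1 promoter was set beside the 9574 regions that were called in both WT libraries. Of these, 37.7% were also called in Shh-/- rep1, 89.8% in Shh-/- rep2 and 9.76% in neither. Ordered by their mean place in the WT lists and divided into 5 equal groups, the Kcnq1ot1 promoter fell in group 3. Of the 1915 regions of this group, 28.8% were called in Shh-/- rep1, 97.2% in Shh-/- rep2 and 2.51% in neither. The 2294 regions with a GC content within 5 percentage points of it were called in Shh-/- rep1 in 51.2% of cases, in Shh-/- rep2 in 81.7% and in neither in 17.4%. Of 296 promoter regions that shared both the rank group and the GC content, 55.4% were called in Shh-/- rep1, 97.0% in Shh-/- rep2 and 9, or 3.04%, in neither. The Kcnq1ot1 promoter was chosen for its calls in WT libraries only, so these shares describe the lists and nothing is read from them about this promoter. With 2 libraries per genotype the spread between embryos is not known.

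**Figure D4:**
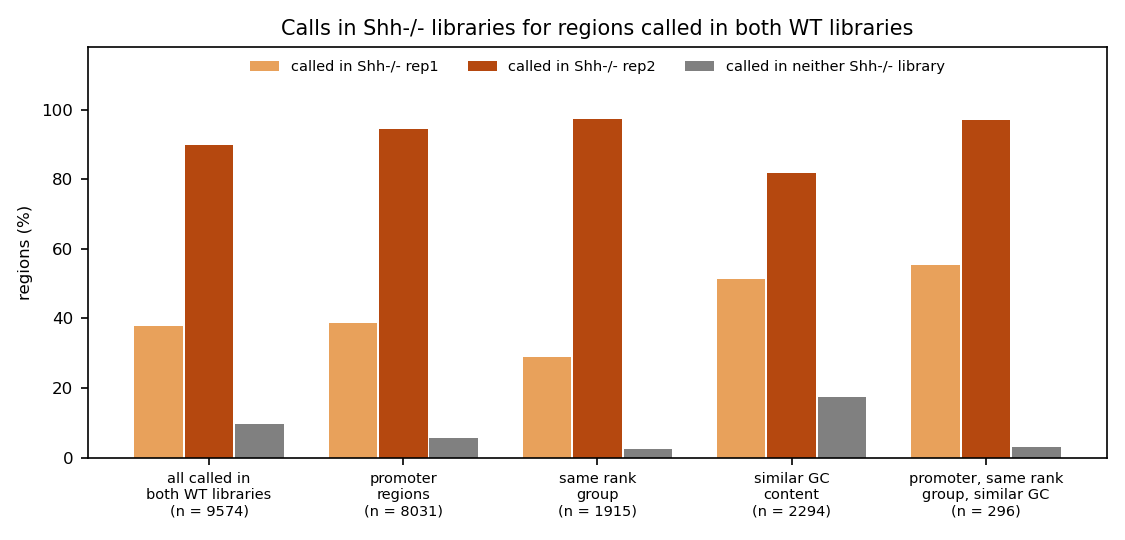
Of the regions called in both WT libraries, the percent also called in each Shh-/- library and in neither of them, for all such regions and for regions like the Kcnq1ot1 promoter in class, rank or GC content. Bars are shares of regions, not of embryos. The grey bar, called in neither, is 9.76% over all 9574 regions and 3.04% for the 296 promoter regions alike in rank and GC content.

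The other peaks in the Kcnq1ot1 window were called in 1 library each. WT rep1 had peaks 9.28 kb upstream of the TSS (rank 18313) and beyond the end of the gene, 107.29 and 109.38 kb downstream of the TSS (ranks 35708 and 35707). Shh-/- rep2 had a peak 105.94 kb downstream (rank 11876). All of these lie in introns of Kcnq1, and within the 93.1 kb body of Kcnq1ot1 no library had a peak other than the promoter.

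Peg3 is a paternally expressed zinc finger gene that shares a bidirectional promoter with Usp29. It had the highest ranked peaks of the 10 genes in every library. The region chr7:6727187-6731032, which covers the promoter and first intron of Peg3 and the start of Usp29, was called in every library, with best ranks of 1449 in WT rep1, 2441 in WT rep2, 561 in Shh-/- rep1 and 773 in Shh-/- rep2. The best summits lay within 231 bp of each other, and the best of all lay 1.84 kb inside the gene. The peaks that overlap the promoter window were 3345 bp, 401 bp, 1103 bp and 3846 bp wide in the same order, and in WT rep2 a narrow peak of rank 5143 was the one nearest to the TSS. The whole region holds 13 YY1 cores, or 3.38 per kb, against 0.61 per kb in the 502 regions of 2 kb or more and 0.50 per kb over all regions. It also holds 8 ZFP57 hexamers, or 2.08 per kb, against 0.66 per kb in regions of 2 kb or more. The printed stretch of 300 bp is the one with the most YY1 cores and was picked for that. The 201 bp around the best summit of the region hold 0 YY1 cores. The only other region in the window is the promoter of the neighbouring imprinted gene Zim1 (chr7:6696119-6696828), with ranks 6250 in WT rep1, 3917 in WT rep2 and 10026 in Shh-/- rep2 and no call in Shh-/- rep1.

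Peg10 is a paternally expressed gene derived from a retrotransposon and is needed in the placenta. It shares its promoter region with Sgce, which is transcribed in the other direction. The region at the common promoter (chr6:4747022-4747859) was called in WT rep1 (rank 15869, 40.6% of the list) and Shh-/- rep2 (rank 12904, 69.9%). A region 1.84 kb into the gene (chr6:4748485-4749459), in its first intron and close to an annotated TSS of Sgce, was called in every library, with ranks 3104, 5898, 1478 and 7443 in WT rep1, WT rep2, Shh-/- rep1 and Shh-/- rep2. The summits of the 4 peaks lay within 88 bp. At Peg10 the intron ranked above the promoter in both libraries that had both, and the libraries of the genotypes overlapped in their calls.

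Mest, which encodes a hydrolase-like protein, had a region upstream of its main TSS and another over it. The upstream region (chr6:30736384-30737316, 1.56 kb before the TSS at its best summit) was called in WT rep1 (rank 11997), Shh-/- rep1 (rank 4160, 74.4% of the list) and Shh-/- rep2 (rank 10805, 58.5%), with summits within 205 bp. The region over the TSS (chr6:30737931-30738352) was called in WT rep1 (rank 6912, 17.7%) and Shh-/- rep2 (rank 14289). It has a GC content of 67.7% and 19 CpG sites in the 201 bp around its summit. Mest was called in both Shh-/- libraries and in 1 WT library, so the groups overlapped. The remaining peak of the window lies in an exon of Copg2, which overlaps the end of Mest, in WT rep1 alone (rank 35268).

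Snrpn encodes a spliceosome protein, and its control region is the imprinting centre of the Prader-Willi and Angelman domain. Its 158 kb body and the flanks held 1 peak, in WT rep1 (chr7:60004097-60004411, 0.98 kb downstream of the TSS, in the first intron). The peak ranked 35530, at 90.9% of the list, with a score of 20 that 4117 peaks of this library shared. No other library had a peak at Snrpn.

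H19 had 12 peaks, 11 of them in WT rep1 and 1 in Shh-/- rep2. The promoter region (chr7:142578288-142578787) was called in WT rep1 (rank 16089, 41.2% of the list). On the side of the control region, which lies upstream of H19, a peak 2.21 kb before the TSS (chr7:142580306-142580547) was called in WT rep1 with rank 35702. This peak has 12 CpG sites in the 201 bp around its summit and is the sequence with the CTCF core printed for H19. Further upstream, peaks in WT rep1 lay 15.05 kb (rank 35703) and 17.94 kb (rank 30852) before the TSS. Downstream of H19, on the side that holds enhancers used by H19 and Igf2, 6 regions were called in WT rep1. The highest ranked of these lay 18.26 kb from the TSS, at the promoter of the noncoding RNA Nctc1, and was the only H19 region also called in another library, with rank 7339 in WT rep1 and 6987 in Shh-/- rep2. The others, from 5.01 to 16.48 kb downstream, ranked from 14370 to 35701. None of these regions was called in WT rep2 or Shh-/- rep1.

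Meg3 had 4 peaks, all in WT rep1. The promoter region (chr12:109540850-109541210) had rank 12334 (31.6% of the list), and the others lay 1.83, 2.81 and 12.07 kb into the gene, with ranks 36912, 19072 and 27096. The control region of Dlk1 and Meg3 lies upstream of Meg3. In the stretch from 20 kb to 2 kb upstream, 0 peaks were called in each of the 4 libraries. Between Dlk1 and Meg3, a distance of 77.7 kb, WT rep1 had 2 peaks and Shh-/- rep2 had 1.

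Cdkn1c encodes the cyclin-dependent kinase inhibitor p57. Its promoter region (chr7:143459967-143461892) was called in WT rep1 (rank 3480, 8.90% of the list), Shh-/- rep1 (rank 2568, 45.9%) and Shh-/- rep2 (rank 5042, 27.3%), with summits within 112 bp, and was not called in WT rep2. The Kcnq1ot1 promoter had the opposite calls in WT rep2 and in both Shh-/- libraries, and both promoters were called in WT rep1. Kcnq1ot1 was chosen for its calls in WT libraries only, so any gene called in both Shh-/- libraries differs from it there. WT rep2 had a peak at only 3 of the listed genes, so its missing call is not particular to Cdkn1c. A link between these promoters was not tested. A region 4.05 kb upstream (chr7:143464638-143465521, 69.7% GC) was called in WT rep1 (rank 13101) and Shh-/- rep2 (rank 13061), as was one 15.23 kb downstream (ranks 18314 and 14461). The other 5 regions were called in WT rep1 alone, at ranks from 21532 to 35711. In the 161.8 kb between Kcnq1ot1 and Cdkn1c, WT rep1 had 14 peaks, Shh-/- rep2 had 3, and WT rep2 and Shh-/- rep1 had 0.

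Igf2, a growth factor of the embryo, has several promoters, and 9 regions were called in its window. A region 0.37 kb upstream of the main TSS (chr7:142657711-142658011) was called in WT rep1 (rank 25720), Shh-/- rep1 (rank 3296, 59.0% of the list) and Shh-/- rep2 (rank 13060), with summits within 25 bp. A region 2.05 kb upstream (chr7:142659045-142659965) was called in WT rep1 (rank 14371) and Shh-/- rep2 (rank 10888) and had the highest GC content of the 49 regions, 79.1%, with 32 CpG sites in 201 bp. Of the rest, 4 were called in WT rep1 alone and 3, all between genes, in Shh-/- rep2 alone (ranks 14458, 17420 and 18252). WT rep2 had no peak at Igf2, while WT rep1 had 6, Shh-/- rep1 had 1 and Shh-/- rep2 had 5. WT rep2 had a peak at only 3 of the listed genes, so its missing call is not particular to Igf2. Igf2 overlaps Igf2os, which is transcribed from the other strand, and 3 of the Igf2 promoter regions overlap the promoter or exons of Igf2os.

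Dlk1 encodes a membrane protein related to Notch ligands. Its promoter region (chr12:109452790-109453312) was called in WT rep1 alone (rank 27095, 69.3% of the list). A region 2.90 kb upstream (chr12:109449876-109450414) was called in WT rep1 (rank 36911) and Shh-/- rep2 (rank 12177). Further upstream, WT rep1 had a peak at 15.19 kb and Shh-/- rep2 a different one at 13.30 kb.

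The window of 20 kb decides which distant peaks are counted. The outermost peak inside it lay 19.6 kb from Cdkn1c, in WT rep1 (rank 21532). The first ones outside lay 21.2 kb from H19, in WT rep1 (rank 9207) and Shh-/- rep2 (rank 8648), and 21.7 kb from Meg3, in WT rep1 (rank 32430).

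The promoters of 48 other imprinted genes gave a wider view. Of these, 36 had a promoter peak in WT rep1 (75.0%), 18 in WT rep2 (37.5%), 6 in Shh-/- rep1 (12.5%) and 26 in Shh-/- rep2 (54.2%). The shares of protein-coding genes were 60.4%, 39.2%, 17.3% and 51.3% in the same order. No library had a promoter peak for 11 of the 48 (22.9%), against 37.9% of protein-coding genes. Inpp5f, Trappc9, Sgce, Usp29 and Ube3a were called in every library, of which Sgce and Usp29 share their region with Peg10 and Peg3. Nnat, a paternally expressed gene, was the only one of the 48 called in both WT libraries (ranks 13880 and 9049) and in neither Shh-/- library, which is 2.08% against 0.899% of all genes and 1.53% of protein-coding genes. The 5 called in every library are 10.4% of the 48, against 7.88% of all genes and 16.1% of protein-coding genes. Airn, the noncoding RNA that silences Igf2r in cis, was called in WT rep1 alone (rank 10057), as was Igf2r (rank 15013).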

How the data were processed

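Posterior forelimb fractions of 2 WT and 2 Shh-/- embryos were profiled by ATAC-seq with 18 cycles of PCR and grouped by the titles of the libraries. Per the submitters' processing notes the authors used Bowtie2 2.2.5 and MACS2 2.1.0, with mm10 coordinates, a 200 bp window and a q-value limit of 0.05. Peaks were called in each library separately. Read filters and any shift for Tn5 are not given in the sources used here. The deposited score of each peak has no stated scale and was used to rank peaks within its list, with ties ordered by position. An alternative count also required a score of at least 50 in every library, although scores are not comparable between libraries. The deposited fold enrichments, p-values and q-values were all 0 and were not used.

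Peaks overlapping a listed gene (GENCODE M21) or 20 kb on either side were taken, and peaks sharing at least 1 bp were merged across libraries with Python 3.11.15 and checked on simulated data. The TSS is that of the reference transcript of each gene. A promoter peak overlaps 2 kb before to 1 kb after any TSS of a gene. All 10 genes and the regions at them are described, the other imprinted genes and marker lists by counts. Sequences and GC content were read from GRCm38.p6 (RefSeq) with pysam 0.24.0. The genes and lists were chosen with earlier results of these data known, so no test was run. Alternatives were a score of at least 50, equal list size, other windows and overlaps, and each library left out.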

Additional observations from a re-analysis of the deposited data

How the results depend on the processing

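The count of 1 region called in both WT libraries and neither Shh-/- library held with a score of at least 50, with equal list size, with the gene body only, with 50 kb on either side and with an overlap of at least 0.5 of the shorter peak, and the count for both Shh-/- libraries stayed at 0. With a library left out, each pattern was asked of the remaining libraries only. With libraries left out in turn, the first count ran from 1 to 31, the highest without WT rep2, and was 2 without Shh-/- rep2. The 31 include the 30 regions called in WT rep1 alone. The count for Shh-/- ran from 0 to 5, with 3 without WT rep1 and 5 without Shh-/- rep1. Those 3 were also called in WT rep1, and those 5 were called in Shh-/- rep2 alone. Regions called in all libraries numbered 2, and 1 with a score of at least 50, 1 with equal list size and 6 with 50 kb on either side, and from 2 to 5 with libraries left out, the highest without WT rep2. Of the 10 genes, equal list size left 3 with a promoter peak in WT rep1, 2 in Shh-/- rep2 and 5 in any library. A promoter window of 500 bp left 1 in WT rep2 and 2 in Shh-/- rep1, and the TSS of the gene record only left 2 in Shh-/- rep1 and 3 in Shh-/- rep2. Without 1 library, from 6 to 10 genes had a promoter peak in any library. Apart from this use of the remaining libraries only, the cause of these changes was not tested. The Kcnq1ot1 promoter was called in 2 WT and 0 Shh-/- libraries with a score of at least 50, equal list size and both other promoter windows. Ranks moved by less than 1.5 times in 21 of 21 cases with tied scores given their mean rank, and in 17 of 17 with the window of 500 bp, which left 4 promoter peaks without a value. The labels give no pairing of the embryos and no test was run, so there was no paired analysis. The files give no read count for any list, so the part of depth in a missing call was not tested.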

Other observations

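The promoters of 19 genes tied to setting, reading, keeping or removing imprints were also looked at. Of these genes, 17 had a promoter peak in WT rep1, 11 in WT rep2, 6 in Shh-/- rep1 and 14 in Shh-/- rep2. These are 89.5%, 57.9%, 31.6% and 73.7%, against 60.4%, 39.2%, 17.3% and 51.3% of all protein-coding genes in the same order. Arid4b and Arid4a, chromatin proteins tied to the imprint of Snrpn, had the highest ranks, with 82 and 150 in WT rep1, 151 and 491 in WT rep2, 45 and 111 in Shh-/- rep1 and 132 and 107 in Shh-/- rep2. Trim28, Uhrf1, Ctcf and Smchd1 were called in every library as well. Zfp57, the zinc finger protein that binds methylated control regions, was called in WT rep1 (rank 8401) and Shh-/- rep2 (rank 11301). Dppa3, which protects imprints in the early embryo, and Tet1, a demethylating enzyme, were not called in any library.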
